A study of Sus scrofa with 18 samples.

Results

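Normal tissue labelled scrotum was compared with normal tissue labelled mouth in wild-type (WT) pigs. The comparison used 6 of the 18 messenger RNA libraries of the series, 3 per label, chosen by their deposited titles and not by any measured value. The study induced tumours in a double knock-in (DIK) pig that carries elements of the doxycycline-switched Tet-on system and of the phiC31 integrase. DIK founders aged 7 months and age-matched WT pigs were given doxycycline, tumours grew in the nose, mouth and scrotum of 1 founder, and tissue was taken 8 months after induction. The libraries compared here come from WT pigs, which have no knock-in but received doxycycline like the DIK pigs. Their breed, the depth of the biopsies and the number of WT animals are not stated. All 3 libraries of a label may therefore come from 1 animal. A p-value then reflects the spread among libraries, estimated over all 18 of the series, tumours included, and not the spread among animals. Part of the spread among libraries may be technical.

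Skin and mucosa consist of an epithelium over connective tissue, with muscle of a kind that depends on the body site. The lips, cheeks, tongue and snout are moved by skeletal muscle, whose fibres are filled with sarcomeres and burn sugar and fat. The scrotal wall holds the dartos, a sheet of smooth muscle under the skin that contracts slowly and is driven by a different set of myosins, actins and calcium channels. Connective tissue cells also keep a record of their place in the body: HOX genes of the later paralogue groups are switched on in the trunk, hind limb and genital region and are silent in most of the face, while genes such as MSX1 and ALX1 pattern the jaw and face.

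Library depth was 3317346 to 4790537 counts under the mouth label and 2961184 to 4792168 under the scrotum label. Values are given as CPM, counts scaled to a common library size, here the effective size of the TMM method (trimmed mean of M-values), so the values of a library do not add up to a fixed total. At this depth 3 counts correspond to 0.483 to 0.787 CPM in the mouth label and to 0.611 to 1.26 CPM in the scrotum label. Pairs of libraries correlated at 0.868 to 0.959 (Pearson, log CPM, across genes) within the mouth label and at 0.763 to 0.932 within the scrotum label. Among the 6 libraries a pair stood apart. WT scrotum replicate 2 held 192 genes at over 10 times the level of the next highest of the 6 libraries (CPM + 1), epidermal genes among them, and WT mouth replicate 1 held 63, with gland genes among them. The other 4 libraries held 0 such genes. Results that rest on either of this pair are given with and without it. WT nose tissue is given beside some values, and its replicate 1 held only 418665 counts, so that 3 counts are 5.76 CPM there.

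Of 12895 genes tested, 2970 (23%) differed between the labels at an adjusted p under 0.05 (edgeR quasi-likelihood test, Benjamini-Hochberg). A total of 1772 genes (13.7%) were higher and 1198 (9.29%) lower under the scrotum label, and the median log2 difference of all tested genes was 0.01. Differences of at least 8-fold were found for 685 of the higher and 221 of the lower genes. With library size as the only scaling the counts were 1174 higher and 2670 lower, the higher share of the calls changed from 59.7% to 30.5%, and the median of all genes shifted to -0.44. The 3 libraries of each label did not overlap for 3931 genes (30.5%). In all that follows, a positive log2 difference means a higher level under the scrotum label, and a gene is called only where it passed the threshold. Counts of called genes in a list stand beside 13.7% higher and 9.29% lower among all genes. Errors after ± are standard errors (SE) of the log2 difference. In bulk tissue, fewer cells of a type and less RNA per cell cannot be told apart.

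**Figure D1:**
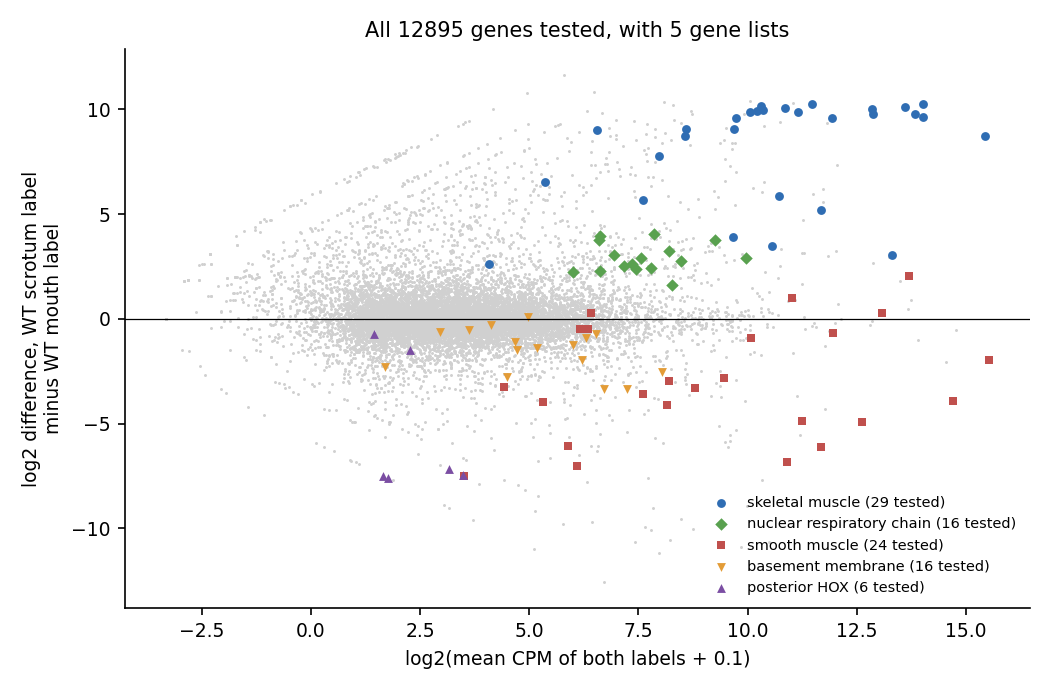
Log2 difference of the WT scrotum label minus the WT mouth label (vertical axis) against the log2 mean CPM of both labels plus 0.1 (horizontal axis) for 12895 genes, 1 grey point each, with 5 gene lists in colour. Skeletal muscle genes lie far above 0 (median 9.60), smooth muscle genes mostly below it (median -3.29), and the posterior HOX genes below it.

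HOXA9, HOXA10, HOXC8 and HOXC9, genes of the later HOX paralogue groups, were present in every library labelled mouth. Summed over the 3 libraries, each had at most 1 count under the scrotum label. Of 17 tested genes of the face and jaw, 9 were called higher under the scrotum label, and 7 of 18 without WT scrotum replicate 2. HOXA10, a transcription factor of the hind body, had 14.8, 26.5 and 24.4 CPM in the 3 libraries labelled mouth. It had 0.42, 0 and 0 CPM in the 3 labelled scrotum, and 0, 0 and 0.214 CPM in WT nose tissue. The labels did not overlap, with a log2 difference of -7.45 ± 0.73, adjusted p = 2.97e-06. As the scrotum label gave 1 count in all, that fitted value depends on edgeR's default prior count, and the ratio from pooled counts was 241 (95% counting interval 43 to 9551). HOXC9 had 12.6, 20.4 and 20.2 CPM under the mouth label and 0, 0 and 0.251 CPM under the scrotum label (adjusted p = 5.97e-05). Its pooled ratio was 195 (95% counting interval 34.6 to 7714). HOXA9 (5.95, 6.8 and 5.51 CPM) and HOXC8 (5.47, 7.49 and 6.82 CPM) were detected in every library labelled mouth and had 0 counts in every library labelled scrotum. Against a floor of 3 counts over the group, HOXA9 was at least 23.1-fold and HOXC8 at least 24.6-fold lower there. HOXD9, at 5.15, 9.24 and 6.56 against 1.68, 1.63 and 4.01 CPM, was called lower (-1.48 ± 0.49, adjusted p = 0.0342), but lost its call without WT mouth replicate 2 or 3 or WT scrotum replicate 1 or 2 (adjusted p up to 0.149). HOXD8 was not called (-0.74 ± 0.51).

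Of the 17 posterior HOX genes in the table, 6 passed the filter on low counts, 5 were called lower and 1 was not called. No listed gene of a paralogue group later than that of HOXA10 passed. Of the 17 genes, 4 had 0 counts in all libraries labelled mouth and 9 in all labelled scrotum. HOXA9, HOXA10, HOXC8 and HOXC9 passed through the label where they were high, so this count describes the members and supports no direction. The summed level of the whole list was 50.2, 81.6 and 77.6 CPM under the mouth label and 5.45, 7.34 and 7.27 CPM under the scrotum label. WT nose tissue had 3.84 to 6.84 CPM, so the scrotum label lay close to nose and the mouth label far above both. Of 21 listed HOX genes of the anterior and middle groups HOXA5, HOXA7 and HOXC4 passed the filter, also through the mouth label, and were called lower. HOXA7, with 7.4, 4.53 and 6.56 against 0, 0 and 0.251 CPM, had a ratio from pooled counts of 69.4 (95% counting interval 12.2 to 2769), and HOXA5, with 3.54, 4.36 and 3.15 against 0, 0.204 and 0 CPM, of 42.2 (95% counting interval 7.29 to 1695). HOXC4 differed by -3.08 ± 0.91, adjusted p = 0.0239, and its call was lost without WT mouth replicate 2 or 3 or WT scrotum replicate 1 or 3 (adjusted p up to 0.0761), while its difference was -6.49 without WT scrotum replicate 2. A HOX gene at 0 in the scrotum label was not detectable at this depth, which does not show that it is silent.

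**Figure D2:**
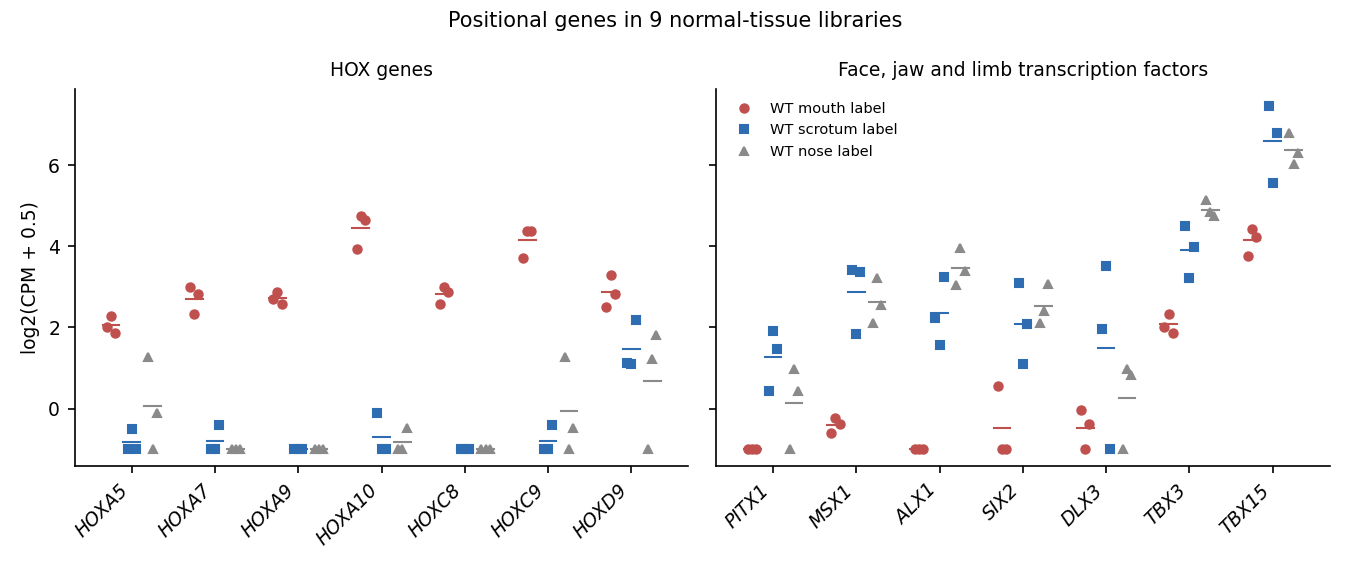
Level of positional genes in each of 9 WT libraries, as log2(CPM + 0.5), with bars for the mean of 3 libraries per label. HOX genes (left) were high in the 3 libraries labelled mouth (HOXA10 at 14.8, 26.5 and 24.4 CPM), while MSX1 and ALX1 (right) were higher in the 3 libraries labelled scrotum (MSX1 at 10.1, 3.06 and 9.78 CPM).

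Several transcription factors of the face were higher under the scrotum label. MSX1, a homeobox gene of the jaw and palate, had 10.1, 3.06 and 9.78 CPM under the scrotum label and 0.161, 0.349 and 0.262 CPM under the mouth label (4.70 ± 0.62, adjusted p = 1.66e-05). WT nose tissue held 3.84, 8.76 and 5.34 CPM. ALX1, a gene of the frontonasal skeleton, was at 4.2, 2.45 and 9.03 CPM under the scrotum label and at 0 in each library labelled mouth, a difference of at least 27-fold. PITX1, known both in the jaw and in the hind limb, was at 0.839, 3.26 and 2.26 CPM against 0, at least 12.6-fold higher. The labels did not overlap for any of these 3 genes. LHX8, a jaw gene that did not pass the filter, had 4.62, 1.63 and 10.3 CPM against 0 in the mouth label, at least 28-fold higher.

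In all, 17 of 25 face and jaw genes were tested, 9 were called higher, 2 lower and 6 not called. ALX1 and PITX1, at 0 in each WT library labelled mouth, passed the filter through other groups, so this count too is a description. The members did not all point the same way, and HAND2 was 1 of the 2 lower genes. HAND2, known in the lower jaw and also in limb and smooth muscle cells, differed by -2.19 ± 0.64, adjusted p = 0.0225, and lost its call without WT mouth replicate 2 or 3 or WT scrotum replicate 1 (adjusted p up to 0.103). SIX2 was higher (3.41 ± 0.94, adjusted p = 0.0196), a call lost without WT mouth replicate 2 or 3 or WT scrotum replicate 1 (adjusted p up to 0.0791), and its value was 6.90 without WT mouth replicate 1. DLX3, DLX4 and DLX5, homeobox genes of the jaw and of skin appendages, were called higher, and all 3 calls were lost without WT scrotum replicate 2. DLX3 had 3.36, 11 and 0 CPM in the 3 libraries labelled scrotum, and differed by 4.14 ± 0.99 with and by 2.28, adjusted p = 0.116 without that library. The 3 libraries labelled scrotum thus did not share a level of DLX3. DLX5 had 0, 1.83 and 0.251 CPM against 0 in each library labelled mouth, at least 4.66-fold higher (adjusted p = 0.0139), with an adjusted p of 0.271 without that library. DLX4, whose call was also lost without WT mouth replicate 2 or 3, had 2.59 ± 0.92 with and -0.18, adjusted p = 0.938 without it, or 4.11 without WT mouth replicate 1. Neither DLX3, DLX4 nor DLX5 was called by limma-voom. Among the 6 genes not called were MSX2 (0.66 ± 0.49), LHX6 (-1.71 ± 0.84), PAX3 (1.30 ± 0.55) and OTX1 (2.45 ± 1.19). OTX1 ranged from -1.18 to 5.50 with 1 library left out, lowest without WT scrotum replicate 2 and highest without WT mouth replicate 1, and was called without WT scrotum replicate 3.

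Listed genes of the hind limb and genital region gave no common direction, with 3 of 7 higher, 2 lower and 2 not called. Among all genes 13.7% were higher and 9.29% lower. TBX15, a gene of body-wall, limb and craniofacial mesenchyme, had 175, 46.3 and 110.1 CPM under the scrotum label and 13, 21.1 and 18.4 CPM under the mouth label (2.65 ± 0.39, adjusted p = 5.95e-05). TBX3 was at 22.2, 8.76 and 15.3 against 3.54, 4.53 and 3.15 CPM (2.00 ± 0.35, adjusted p = 0.000302), and TBX2 differed by 1.80 ± 0.51, adjusted p = 0.0157, a call lost without WT mouth replicate 1 or WT scrotum replicate 1 (adjusted p up to 0.114). ISL1, a gene of hind limb and genital outgrowth, had 4.83, 18.6 and 17.8 CPM under the mouth label against 7.55, 4.08 and 2.01 CPM (-1.65 ± 0.54, adjusted p = 0.0324). EMX2, which marks the urogenital ridge, had 5.63, 17.4 and 11.5 against 7.13, 1.43 and 2.26 CPM (-1.79 ± 0.57, adjusted p = 0.0284). Both overlapped between labels, and both lost their calls when WT mouth replicate 2 or 3 or WT scrotum replicate 2 or 3 was left out (adjusted p up to 0.142 and 0.173). EN1 (-1.59 ± 0.77) and TBX18 (-0.75 ± 0.57) were not called. WT nose tissue held 64.3 to 109 CPM of TBX15 and 26.3 to 34.5 CPM of TBX3. It held 1.71 to 3.84 CPM of ISL1 and 0 to 1.5 CPM of EMX2.

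RXFP2, the receptor for the hormone that guides the descent of the testis, was higher in every library labelled mouth. It had 11.4, 34.3 and 31.2 CPM there, against 2.52, 0.204 and 1 CPM under the scrotum label (-4.57 ± 0.65, adjusted p = 0.000222), and 0, 0 and 0 CPM in WT nose tissue. The list of sex steroid action, which holds RXFP2, had 2 of 6 tested genes lower, RXFP2 among them, and 4 not called. Without WT mouth replicate 1 only RXFP2 was lower, and 3 genes were lower without WT scrotum replicate 2. Markers of the testis and epididymis gave no result, since 1 of the 20 listed genes passed the filter.

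The tumours of the DIK founder carry the same labels. Posterior HOX genes summed to 13.3, 22.1 and 22.9 CPM in the DIK libraries labelled mouth and 4.47, 4.65 and 0.625 CPM in those labelled scrotum. Face and jaw genes summed to 48.7, 55.1 and 52.5 CPM under mouth and 523, 669 and 431 CPM under scrotum. In normal tissue the same list summed to 35.9, 62.6 and 51.7 CPM under mouth and 120.0, 104 and 106 CPM under scrotum. Both kinds of tissue thus had the lower HOX sum and the higher face sum under the scrotum label. Single face genes differed between the tissues. In the DIK libraries labelled scrotum SIX2 had 0 counts, ALX1 1 and LHX8 3, while PITX1 had 72.9, 129 and 77.5 CPM. The label difference in DIK was 3.26 for PITX1 and 2.53 for MSX1, both called. DLX3 (-0.48) and DLX5 (-0.60) were not called there. The label difference was compared between tumours and normal tissue by an interaction term, which called 13.1% of all tested genes and 5 of the 33 tested positional genes, or 3 of them without WT mouth replicate 2 or DIK mouth replicate 3. Among the 5 were DLX3, DLX5, TBX15 and TBX3. No HOX gene was called, which does not show an equal HOX difference in tumours and normal tissue. HOXA9 and HOXC8 had 0 counts under the scrotum label in both tissues, so the term could not test them (SE 1360 and 6428). HOXA10 and HOXC9 had at most 1 count there in either tissue. Whether the titles mouth and scrotum were exchanged was not tested, and the labels are kept as deposited throughout.

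The largest differences came from skeletal muscle. All 29 genes of the list that are in the table passed the filter and were higher under the scrotum label, with a median log2 difference of 9.60 and a range of 2.61 to 10.27. Together they held 33.2, 16.4 and 29.5% of all counts in the 3 libraries labelled scrotum and 0.199, 0.524 and 0.441% in the 3 labelled mouth. WT nose tissue held 13.5% to 16.5%, which overlaps WT scrotum replicate 2. TTN, the giant spring protein of the sarcomere, had 46785, 13117 and 27026 CPM under the scrotum label and 20, 39.6 and 39.6 CPM under the mouth label (9.78 ± 0.77, adjusted p = 9.56e-08). NEB, which runs along the thin filament, had 9296, 2138 and 5711 against 3.54, 6.8 and 3.67 CPM (10.24 ± 0.75, adjusted p = 1.25e-07). For both genes WT scrotum replicate 2 was the lowest of its label, and still lay far above all libraries labelled mouth.

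Fast and slow fibre genes were both present. MYH2, a fast oxidative myosin heavy chain, had 48870.5, 8939 and 42192 CPM against 16.6, 35 and 29.4 CPM (10.27 ± 0.99, adjusted p = 5.57e-07), and MYH1, another fast isoform, had 49874, 10943 and 37800.0 against 25.4, 57.9 and 38.8 CPM (9.66 ± 0.92, adjusted p = 4.83e-07). The fast myosin genes are close copies of each other, so the split between them is uncertain. TNNC2, the calcium sensor of fast fibres, differed by 9.94 ± 0.67 and TNNI1, the inhibitory troponin of slow fibres, by 9.99 ± 0.63. MYLPF and MYL1, light chains of fast myosin, differed by 10.03 and 10.11, and MYBPC1, a thick filament protein of slow fibres, by 10.15 ± 0.88. MYL2 and MYL3, light chains shared by heart and slow skeletal fibres, were higher by 9.78 ± 0.78 and 6.51 ± 0.80. ACTA1, the skeletal actin, had 88901, 59262 and 116521 CPM, and with 6.26% to 9.69% of counts it was the most abundant gene of each library labelled scrotum. It had 139, 251 and 241 CPM under the mouth label (8.71 ± 1.42, adjusted p = 0.000249). Actin genes have near-identical coding sequences, so the authors' counting could have split reads among them and their values are uncertain. ACTC1, the cardiac actin, was not called (-1.01 ± 0.82), with 8131, 22526 and 30743 CPM under the mouth label and 11832, 3741 and 14943 CPM under the scrotum label.

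Several muscle genes were at or near 0 under the mouth label. NMRK2, a muscle kinase of NAD synthesis, had 97.3, 20.6 and 65.2 CPM against 0 in each library labelled mouth, at least 276-fold higher. FBP2, the muscle fructose bisphosphatase, had 301, 65.4 and 167 CPM against 1 count in all, a pooled ratio of 2385 (95% counting interval 427 to 94238). XIRP2, an actin binding protein of the myotendinous junction and intercalated disc, had 899, 252 and 482 against 0.161, 0.697 and 0.262 CPM (10.36 ± 0.80, adjusted p = 6.09e-07). SLN, an inhibitor of the calcium pump, had 6156, 1958 and 4419 against 2.41, 4.18 and 3.15 CPM (10.31 ± 0.74, adjusted p = 5.51e-08). CKM, the muscle creatine kinase, differed less than most of the list. It had 923, 3058 and 2684 CPM under the mouth label and 25742, 10329.9 and 18411 CPM under the scrotum label (3.03 ± 1.06, adjusted p = 0.0499), close to the threshold and not called with any of the other scalings run, and its call was lost in each fit that left out 1 library other than WT scrotum replicate 2 (adjusted p up to 0.126). CKM made up most of the summed level of the skeletal list under the mouth label, 1464, 4377 and 3838 CPM.

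Among regulators of muscle identity, 3 of 6 tested genes were higher, 1 lower and 2 not called. MYF6, a myogenic factor of mature fibres, had 143, 22.8 and 85 CPM against 0.322, 0.871 and 0 CPM (7.47 ± 0.90, adjusted p = 9.78e-05). CHRNA1, the acetylcholine receptor subunit of the motor end plate, had 123, 27.3 and 48.7 against 0.322, 0.697 and 2.1 CPM (6.09 ± 1.09, adjusted p = 0.00286), and MEF2C, a partner of myogenic factors, had 177, 63.6 and 125 against 22, 47.1 and 53 CPM (1.58 ± 0.39, adjusted p = 0.00562). MEF2C was not called in a fit of the 6 compared libraries alone (1.51, adjusted p = 0.0659). SRF, which drives contractile genes together with myocardin, was lower, at 5.87, 3.87 and 4.26 against 10.3, 19.3 and 16.8 CPM (-1.75 ± 0.40, adjusted p = 0.00341). CACNA1S, the voltage sensor of skeletal muscle, had 114, 24.2 and 50.2 against 0.322, 0 and 0 CPM, a pooled ratio of 412 (95% counting interval 114 to 3413). CKMT2, the mitochondrial creatine kinase of muscle, differed by 10.38 ± 0.85, adjusted p = 9.66e-07, and ATP2A2, the calcium pump of slow fibres and heart, by 5.43 ± 0.52, adjusted p = 5.57e-07.

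Genes of energy metabolism were higher with the muscle genes. All 16 tested nuclear genes of the respiratory chain were called higher, with a median of 2.83 and no overlap between labels. UQCRB, a subunit of complex III, had 636, 207 and 472 CPM under the scrotum label and 25.3, 20.4 and 33.3 CPM under the mouth label (4.06 ± 0.40, adjusted p = 5.99e-07), and NDUFA4, a subunit of cytochrome oxidase, had 1652, 565 and 1193 against 103, 63.1 and 86.6 CPM (3.76 ± 0.40, adjusted p = 1.38e-06). Of 23 genes of glycolysis and glycogen use, 19 were higher, 1 lower and 3 not called, with a median of 2.53. Isoforms of muscle were among the higher genes. PGAM2, the muscle phosphoglycerate mutase, had 3569, 1439 and 2919 against 3.54, 5.93 and 3.67 CPM (9.22 ± 0.53, adjusted p = 5.29e-09). ENO3, the muscle enolase, had 8555, 3756 and 7706 against 43.3, 117 and 110.4 CPM (6.21 ± 0.71, adjusted p = 3.24e-06), and PFKM, the muscle phosphofructokinase, differed by 6.23 ± 0.51, adjusted p = 1.45e-07. PYGB, the glycogen phosphorylase first described in brain, was the gene that was lower, with 58.9, 139.6 and 133 CPM under the mouth label against 26.9, 14.7 and 48.2 CPM (-1.89 ± 0.49, adjusted p = 0.00925). Mitochondrially encoded genes were not measured, as 0 of that list were in the table.

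**Figure D3:**
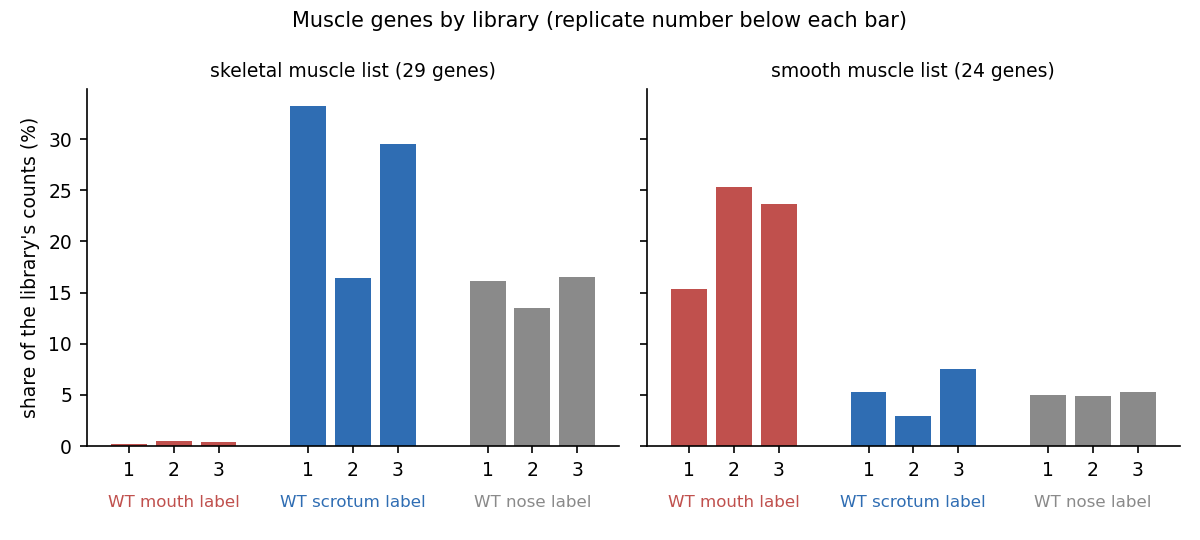
Share of each library's counts (percent) held by the skeletal muscle list (left, 29 genes) and the smooth muscle list (right, 24 genes), 1 bar per library in 3 libraries of each WT label. Skeletal muscle genes held 16.4% to 33.2% under the scrotum label and under 1% under the mouth label, and smooth muscle genes 15.3% to 25.3% under the mouth label and 2.96% to 7.51% under the scrotum label.

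Smooth muscle genes were lower under the scrotum label. Of 24 tested genes 16 were lower, 1 higher and 7 not called, with a median of -3.29. The list held 15.3, 25.3 and 23.7% of counts in the 3 libraries labelled mouth and 5.31, 2.96 and 7.51% in the 3 labelled scrotum, and 4.91% to 5.26% in WT nose tissue. ACTA2 and ACTG2 made up most of this share in each library labelled mouth. In each library labelled scrotum most of it came from ACTA2 and TPM2, which is not particular to smooth muscle. MYH11, the myosin heavy chain of smooth muscle, had 3609.5, 8269.9 and 7506 CPM under the mouth label and 83.5, 23.4 and 174 CPM under the scrotum label (-6.11 ± 0.69, adjusted p = 2.88e-06). WT mouth replicate 1 was the lowest of its label and still lay far above all libraries labelled scrotum. MYLK, the kinase that starts smooth muscle contraction, had 1691, 4954 and 4809 against 30.2, 12 and 59.4 CPM (-6.82 ± 0.61, adjusted p = 2.99e-07). MYOCD, the coactivator that switches on smooth muscle genes, had 9.33, 26.5 and 31.7 CPM against 1 count in all, a pooled ratio of 237 (95% counting interval 42.2 to 9382). KCNMB1, the potassium channel subunit of smooth muscle, had 65.7, 178 and 163 against 0.839, 0 and 2.26 CPM (-7.04 ± 0.75, adjusted p = 3.42e-06).

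Actin binding and regulatory proteins of smooth muscle differed in the same direction. TAGLN had 7544, 16042 and 13169 CPM under the mouth label against 288, 101 and 819.9 CPM (-4.92 ± 0.60, adjusted p = 6.68e-06), and FLNA, an actin crosslinker, had 2553, 6182 and 5378 against 167, 86.6 and 228 CPM (-4.87 ± 0.46, adjusted p = 4.45e-07). SMTN, found in contractile smooth muscle cells, differed by -3.59 ± 0.39, adjusted p = 1.93e-06, and PGM5, of smooth and striated muscle adhesion sites, by -4.11 ± 0.45, adjusted p = 2.06e-06. ACTG2, the enteric smooth muscle actin, had 35158, 59134 and 55374 against 1769, 600.3 and 7599 CPM (-3.91 ± 0.88, adjusted p = 0.00337). ACTA2, the vascular smooth muscle actin, had 49244, 86507 and 88647 CPM under the mouth label, where it was the most abundant gene of each library, and 11351, 4886 and 41482 CPM under the scrotum label (-1.96 ± 0.62, adjusted p = 0.0269). Its call was lost without WT mouth replicate 2 or 3 or WT scrotum replicate 1 or 2 (adjusted p up to 0.104), and its difference was -3.20 without WT scrotum replicate 3. Both actins are uncertain for the reason given for ACTA1. TPM2, a tropomyosin that skeletal muscle also uses, was higher instead, at 27451, 13793 and 23126 against 3126, 6579 and 5649.6 CPM (2.07 ± 0.39, adjusted p = 0.000636). DES, the filament protein that both kinds of muscle use, was not called (-0.66 ± 0.53), with 2584, 5913 and 6005 CPM under the mouth label and 5269, 1292 and 2626 CPM under the scrotum label. Of 16 tested creatine, calcium and channel genes, 8 were lower, among them KCNMB1, and 3 were higher, namely CACNA1S, CKMT2 and ATP2A2.

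PCP4, a small calmodulin regulator, and ACAN, the proteoglycan aggrecan, were among the largest differences with higher levels under the mouth label. PCP4 had 203, 613 and 549 CPM against 1.68, 0.611 and 0.502 CPM (-9.04 ± 0.67, adjusted p = 1.66e-07). ACAN had 15.9, 66.1 and 77.4 CPM against 2 counts in all, a pooled ratio of 277 (95% counting interval 76.3 to 2287). COMP and PRG4, matrix proteins of cartilage, tendon and joint surfaces, went the other way. COMP had 8.39, 7.13 and 16.3 CPM against 0, 0.523 and 0.262 CPM (5.20 ± 0.89, adjusted p = 0.000257), and PRG4 had 6.29, 3.26 and 7.27 against 0, 0.523 and 0.262 CPM (4.27 ± 0.83, adjusted p = 0.00229). WT nose tissue held 0 to 1.92 CPM of COMP and 0 to 0.427 CPM of PRG4, with the limit in depth given above. THBS4, of tendon and muscle attachment, differed by 1.23 ± 0.40, adjusted p = 0.0301, a call lost without WT mouth replicate 1 (0.77, adjusted p = 0.0732), WT mouth replicate 3 or WT scrotum replicate 3.

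Basement membrane genes, which coat smooth muscle cells, vessels and epithelia, were lower for 9 of 16 tested genes and not called for 7, with a median of -1.31. COL4A2 had 152, 350.3 and 323 CPM under the mouth label and 27.3, 18.1 and 35.6 CPM under the scrotum label (-3.35 ± 0.37, adjusted p = 2.3e-06). Its partner chain COL4A1 had 247, 558 and 534 against 66.7, 36.9 and 125 CPM (-2.55 ± 0.43, adjusted p = 0.000213). COL4A5 differed by -2.78 ± 0.46, adjusted p = 0.000176, and HSPG2, the proteoglycan perlecan, by -1.97 ± 0.38, adjusted p = 0.000792. The general fibroblast list differed less, with 5 of 25 genes lower and 20 not called. There were 8 lower genes without WT mouth replicate 1, and 6 lower and 3 higher genes without WT scrotum replicate 2. SFRP2, a secreted modulator of WNT, had 51.3, 121 and 164 against 3.78, 2.45 and 6.27 CPM (-4.74 ± 0.54, adjusted p = 4.14e-06). POSTN, a matricellular protein, had 488, 729 and 758 against 39.9, 214 and 31.4 CPM (-2.79 ± 0.58, adjusted p = 0.00193), and its difference was -4.20 without WT scrotum replicate 2. MFAP4 (-2.54 ± 0.51), COL12A1 (-1.70 ± 0.28) and COL6A3 (-1.55 ± 0.45) were the other 3, and COL6A3 lost its call without WT mouth replicate 2 or 3 or WT scrotum replicate 1 (adjusted p up to 0.0609). COL1A1, the main fibrillar collagen chain, was not called, at 3511, 4670.0 and 6519 against 2870.5, 1128 and 5446 CPM (-0.64 ± 0.47).

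Some secreted antagonists of BMP and WNT signals differed between the labels, and they did not share a direction. GREM1, a BMP antagonist, had 16.4, 39.9 and 33.3 CPM under the mouth label and 0.839, 2.24 and 1.25 CPM under the scrotum label (-4.24 ± 0.41, adjusted p = 1.07e-06). DKK2 and DKK3, of a family of WNT modulators, had 35.6, 144 and 132 against 7.55, 5.3 and 9.28 CPM (-3.82 ± 0.52, adjusted p = 2.67e-05) and 26.4, 79.1 and 66.1 against 8.39, 10.2 and 7.77 CPM (-2.69 ± 0.34, adjusted p = 8.9e-06). WIF1, a WNT inhibitor, was higher under the scrotum label, with 5.87, 29.5 and 6.52 CPM against 2 counts in all, a pooled ratio of 129 (95% counting interval 35.3 to 1076). Among 27 tested WNT and BMP genes, 7 were higher, 5 lower and 15 not called, beside 13.7% higher and 9.29% lower among all genes. GREM1, DKK2, DKK3 and WIF1 were the members of that list with the lowest adjusted p. CRABP1, a retinoic acid binding protein, had 26.4, 95.7 and 77.1 CPM under the mouth label against 0.42, 1.83 and 1.25 CPM (-5.65 ± 0.76, adjusted p = 3.73e-05). It was 1 of 3 lower and 4 higher genes among 20 tested for hedgehog, FGF and retinoic acid signalling, of which 2 were higher without WT scrotum replicate 2.

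Epidermal genes were called higher under the scrotum label, but the level came from a single library. The cornified epidermis list summed to 190.5, 63576 and 85 CPM in WT scrotum replicates 1, 2 and 3, against 116, 185 and 323 CPM under the mouth label. It was called higher for 21 of 22 tested genes, with a median of 6.14. DESeq2 called 14 of these genes, and limma-voom with quality weights 0. Without WT scrotum replicate 2 edgeR made 0 calls, 2 genes were at an unadjusted p under 0.05, and the median was 0.08. Without WT mouth replicate 1 the count was 5, with 22 at an unadjusted p under 0.05. CDSN, which holds dead surface cells together, had 13.8, 2424 and 3.01 CPM in the 3 libraries labelled scrotum and 1.29, 2.44 and 4.2 CPM in those labelled mouth. Its difference was 8.28 ± 2.04 with WT scrotum replicate 2 and 1.66, adjusted p = 0.164 without it. KRT1, the keratin of maturing epidermis, had 23.9, 25243 and 12.5 against 23.3, 49.2 and 83.7 CPM, so replicates 1 and 3 lay at the level of the mouth label. Its difference was 7.34 ± 2.32, adjusted p = 0.0357 with WT scrotum replicate 2 and -1.51 without it, and its call was also lost without any 1 of the libraries labelled mouth (adjusted p up to 0.352 over all fits without 1 library).

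Other keratinocyte lists gave other counts without the same library. Lipid barrier genes went from 8 of 12 higher to 1 higher and 1 lower, and to 5 higher without WT mouth replicate 1. Basal keratinocyte genes were higher for 4 of 15, for 2 without WT scrotum replicate 2, for 7 without WT mouth replicate 1 and for 1 by limma-voom. Without WT scrotum replicate 2 none of the 5 higher calls among 23 proliferation genes held, with 1 lower and 3 at an unadjusted p under 0.05, and 2 were higher without WT mouth replicate 1. TOP2A, the topoisomerase of dividing cells, differed by 2.12 ± 0.62 with and 0.92, adjusted p = 0.36 without it, and its call was also lost without WT mouth replicate 1 (1.76, adjusted p = 0.0759) or 2. TP63, the master factor of squamous epithelium, was called in every fit that left out 1 library, but not in a fit of the 6 compared libraries alone (adjusted p = 0.0596). It had 9.65, 37.9 and 5.27 CPM under the scrotum label and 1.77, 0 and 0.262 CPM under the mouth label (4.54 ± 0.79, adjusted p = 0.000534), 3.23 without WT scrotum replicate 2 and 6.95 without WT mouth replicate 1. KRT5, the keratin of the basal layer, was not called, with 963, 12047 and 41.1 against 1292, 82.3 and 105 CPM (3.14 ± 1.34). It was called without WT mouth replicate 1 (5.48, adjusted p = 0.0152), without WT scrotum replicate 3 and by DESeq2, and was at 0.02 without WT scrotum replicate 2.

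Markers of oral mucosa were low under the mouth label. KRT4, a keratin of moist stratified epithelium, had 1.61, 1.57 and 1.05 CPM there and 13, 2.45 and 6.02 CPM under the scrotum label, and was not called (2.26 ± 1.01), though DESeq2 (adjusted p = 0.046) and a fit of the 6 compared libraries alone (adjusted p = 0.0471) called it higher. Of 7 tested members 5 were higher under the scrotum label and 2 not called, and 2 were higher without WT scrotum replicate 2 and 3 without WT mouth replicate 1. RHCG, an ammonia channel of squamous mucosa, had 9.65, 11.2 and 9.53 against 1.77, 0.349 and 0.262 CPM (3.54 ± 0.68, adjusted p = 0.000873). ECM1, of skin and mucosa, had 264, 2525 and 696 against 132, 64.5 and 81.1 CPM (3.65 ± 0.58, adjusted p = 0.000129). Both were called without WT scrotum replicate 2, at 3.44 and 2.38.

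Hair follicle genes were high in 2 of the 3 libraries labelled scrotum. The list summed to 1376, 2079 and 13.8 CPM in replicates 1, 2 and 3, against 26.6, 33.1 and 23.3 CPM under the mouth label and 114 to 140.2 CPM in nose tissue. TCHH, the protein of the inner root sheath, had 309, 369 and 0.502 CPM against 0.322, 0.523 and 0.262 CPM (9.10 ± 1.66, adjusted p = 0.00204), and KRT25, an inner root sheath keratin that did not pass the filter, had 401, 499 and 0 against 0.644, 1.05 and 0.262 CPM. Replicate 3 overlapped the mouth label for both. Of 11 tested genes 8 were called higher and 1 lower, and 4 were higher without replicate 2. EDAR, the receptor that starts hair placodes, had 3.36, 3.46 and 1.5 against 0.161, 0.174 and 0.525 CPM without overlap (3.25 ± 0.59, adjusted p = 0.000484). LGR5, of follicle stem cells and also of some mesenchyme, was lower, at 6.71, 3.26 and 0.752 against 11.9, 24.9 and 18.9 CPM (-2.46 ± 0.55, adjusted p = 0.0036). The pigment cell genes PMEL and TYRP1 followed the hair genes, with 62.1, 104 and 1.5 and 6.29, 5.3 and 0 CPM under the scrotum label. Under the mouth label PMEL had 1.29, 1.57 and 3.15 CPM and TYRP1 0. TCHH, PMEL and TYRP1 were not called by limma-voom.

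**Figure D4:**
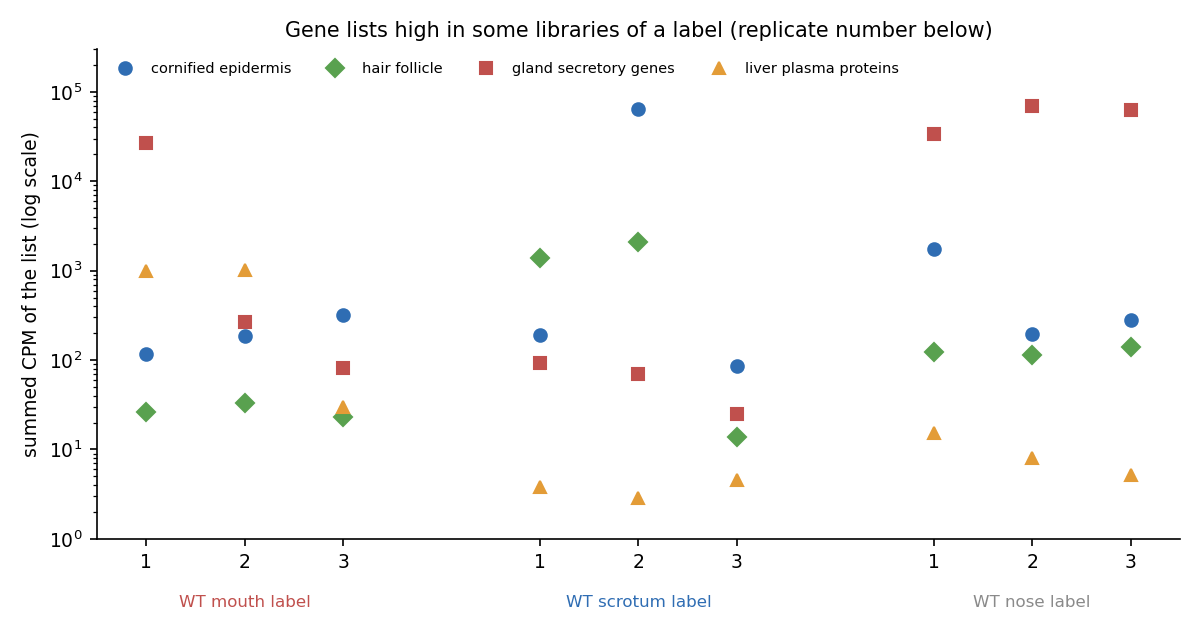
Summed CPM (log scale) of 4 gene lists in each of 9 WT libraries, 1 point per list and library. The cornified epidermis list was high in WT scrotum replicate 2, the hair follicle list in WT scrotum replicates 1 and 2, gland secretory genes in WT mouth replicate 1 and the nose libraries, and liver plasma protein genes in WT mouth replicates 1 and 2.

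Gland genes gave several of the largest differences with higher levels under the mouth label, and these came from WT mouth replicate 1. PIP, a secretory protein of salivary, sweat and tear glands, had 6006, 61 and 8.39 CPM under the mouth label and 5.04, 4.69 and 2.76 CPM under the scrotum label (-8.93 ± 2.08, adjusted p = 0.0093). Without that library its difference was -3.09, adjusted p = 0.00361. CHIA, an acidic chitinase, had 2541, 19 and 2.89 against 2.52, 0.408 and 0 CPM (-10.03 ± 2.66, adjusted p = 0.0234), and -3.81, adjusted p = 0.0205 without it. The CHIA call was lost without any 1 of the libraries labelled scrotum (adjusted p up to 0.104). GLYATL2, an acyltransferase of secretory tissue, had 2127, 15.7 and 1.84 against 1.68, 0.611 and 0.752 CPM (-9.54 ± 2.21, adjusted p = 0.00662), and -3.25, adjusted p = 0.0173 without WT mouth replicate 1. ABCC11, a transporter of apocrine glands, had 212, 3.14 and 2.89 CPM under the mouth label against 2 counts in all under the scrotum label, a pooled ratio of 482 (95% counting interval 133 to 3986), and its fitted difference was -3.89, adjusted p = 0.0153 without WT mouth replicate 1. PHEROC, a subunit of the salivary pheromone carrier of pigs, had 7592, 53 and 29.6 against 18.5, 12 and 6.27 CPM (-7.71 ± 2.09, adjusted p = 0.0204) and lost its call without WT mouth replicate 1 (-1.79, adjusted p = 0.138) or any 1 of the libraries labelled scrotum. None of these 5 genes was called by limma-voom or in a fit of the 9 WT libraries, where the adjusted p of PIP and ABCC11 was 0.0647 and 0.0643. PIP, CHIA, ABCC11 and PHEROC also lost their calls in a fit of the 6 compared libraries alone, and PIP and PHEROC with a replicate block.

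PIP and PHEROC were also high in WT nose tissue, at 2353 to 4529 and 12089 to 27007 CPM, while CHIA (2.92 to 9.6 CPM), GLYATL2 (0.73 to 9.6 CPM) and ABCC11 (0 to 0.641 CPM) were not. A list of 13 gland genes, chosen after their values were seen, summed to 26888, 268 and 81.8 CPM under the mouth label and 92.3, 70.1 and 24.8 CPM under the scrotum label. Beside 13.7% higher and 9.29% lower among all genes, the salivary and mucous gland list itself had 2 of 16 genes higher, 3 lower and 11 not called. Without WT mouth replicate 1 this list had 1 higher and 1 lower. It summed to 8858, 848 and 979 CPM under the mouth label, where only replicate 1 exceeded the 1198 to 2690.4 CPM of the scrotum label, and to 54780.1 to 95285 CPM in nose tissue. Simple and ductal epithelium genes were lower for 2 of 14, and without WT mouth replicate 1 neither call held and 7 were higher. Without WT scrotum replicate 2 neither call held.

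Fat cell genes were partly higher under the scrotum label, at 8 of 14 with 6 not called and a median of 1.91. GPD1, of glycerol phosphate synthesis, had 619, 162 and 478 CPM against 4.35, 3.49 and 3.41 CPM (6.79 ± 0.55, adjusted p = 1.41e-07). CD36, a fatty acid transporter, had 319, 76.4 and 397 against 26.7, 14.1 and 15.5 CPM (3.81 ± 0.53, adjusted p = 3.61e-05), and SLC2A4, the insulin-regulated glucose transporter, had 301, 70.9 and 207 against 21.1, 22 and 18.4 CPM (3.23 ± 0.51, adjusted p = 0.000144). Skeletal muscle fibres also express these 3 genes. LPL, the lipoprotein lipase of fat and muscle, was not called (1.08 ± 0.61). The list summed to 2441, 812 and 2253 CPM under the scrotum label and 411, 421 and 687 CPM under the mouth label.

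Lists of vessel, nerve and immune cells held different numbers of called genes, against 23% of all genes. Of 21 endothelial genes 3 were lower and 18 not called, with 1 lower without WT scrotum replicate 2. LYVE1, a lymphatic receptor, had 14, 18.1 and 22 against 1.26, 3.46 and 9.28 CPM (-1.88 ± 0.55, adjusted p = 0.019), and lost its call without WT mouth replicate 2 or 3 or WT scrotum replicate 1 or 2 (adjusted p up to 0.0705). Among 9 pericyte genes 3 were lower and 2 higher, and 3 were called in all when WT mouth replicate 1 alone, or WT scrotum replicate 2 alone, was left out. Of 5 B and plasma cell genes 1 was higher and 1 lower, and of 8 neutrophil genes 2 were higher, with 1 call left in each list when either library alone was left out. MCAM, which smooth muscle cells also carry, had 90, 241 and 219.5 against 15.1, 7.13 and 17.6 CPM (-3.80 ± 0.40, adjusted p = 1.38e-06), and CSPG4 differed by -1.98 ± 0.38, adjusted p = 0.000765. Of 13 macrophage, 10 MHC class II and 10 Schwann cell genes tested, 0 were called by edgeR's quasi-likelihood test. At an unadjusted p under 0.05 there were 1 macrophage, 0 MHC class II and 1 Schwann cell gene. DESeq2 called 0, 0 and 1 of them, and limma-voom 1, 0 and 1. Without WT scrotum replicate 2 edgeR called 1 macrophage gene higher and 1 lower, 1 MHC class II gene higher, and 2 Schwann cell genes higher and 1 lower. A gene not called may still differ. Few 2-fold differences were called in simulated data, which held far fewer changed genes than were called here.

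Secreted immune factors and stress genes included called genes in both directions, beside 13.7% higher and 9.29% lower among all genes. C3, the central complement protein, had 121, 86.1 and 34.9 CPM under the mouth label and 23.5, 6.72 and 6.52 CPM under the scrotum label (-2.78 ± 0.64, adjusted p = 0.00521). The complement and chemokine list had 4 of 13 genes lower, 2 higher and 7 not called, with 1 higher when either WT mouth replicate 1 or WT scrotum replicate 2 was left out. Of 19 interferon response genes 2 were lower, and neither call held without WT scrotum replicate 2. Of 19 genes of the immediate early and heat shock list, a group that can react to how tissue is handled, 5 were higher and 2 lower, with 3 higher when either WT mouth replicate 1 or WT scrotum replicate 2 was left out. JUND, a subunit of AP-1, had 49.2, 82.1 and 106 against 22.7, 23.8 and 19.6 CPM (-1.84 ± 0.29, adjusted p = 0.0001), and ATF3, a stress factor, had 6.92, 8.19 and 12.3 against 3.36, 1.63 and 1 CPM (-2.27 ± 0.50, adjusted p = 0.00249). BTG2, an inhibitor of cell division, was higher under the scrotum label, at 46.6, 284 and 58.9 against 16.6, 18.1 and 25.4 CPM (2.70 ± 0.55, adjusted p = 0.0015), or 1.41 without WT scrotum replicate 2. BTG2 was highest in the library with the epidermal genes, and their part in its difference was not tested.

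**Figure D5:**
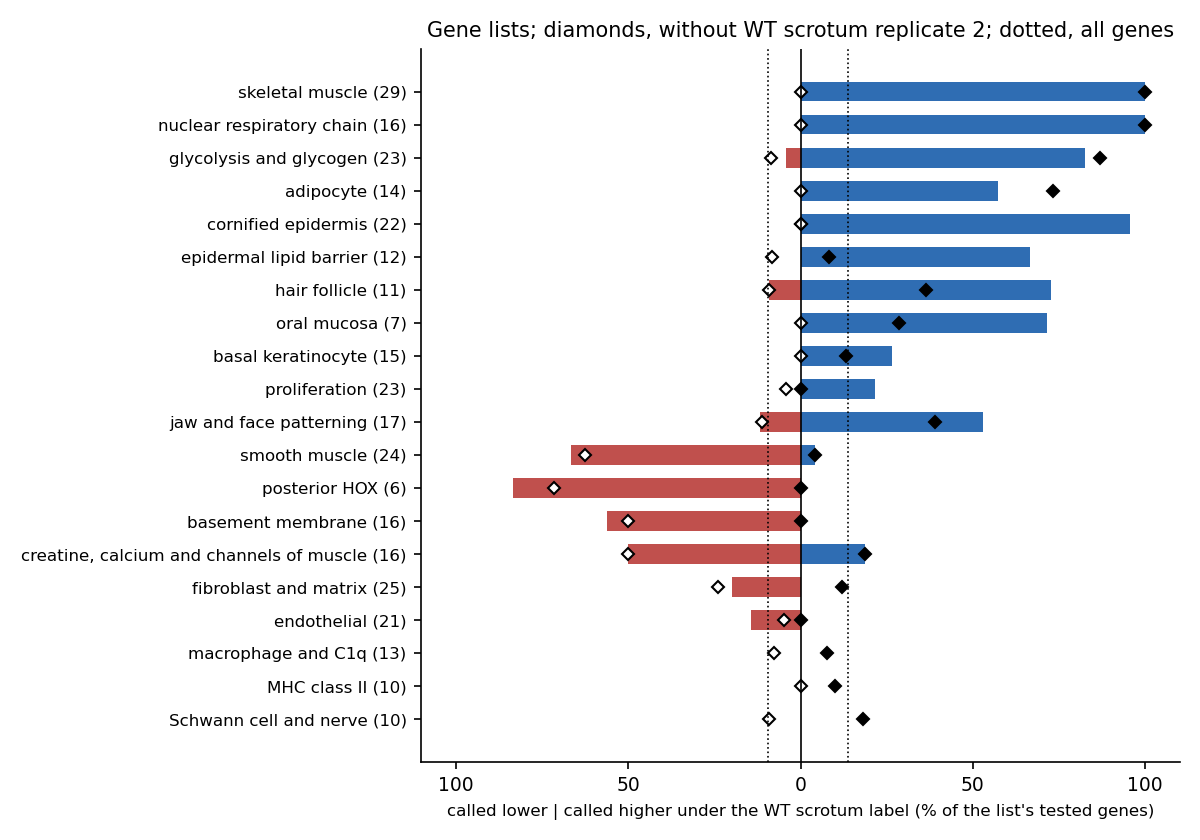
Percent of the tested genes of 20 gene lists (number tested in brackets) called higher (right, blue) or lower (left, red) under the WT scrotum label, with dotted lines at the percent of all genes called (13.7% higher, 9.29% lower). Diamonds (filled for higher, open for lower) give the same without WT scrotum replicate 2: the skeletal muscle and respiratory chain lists stayed at 29 of 29 and 16 of 16 genes higher, and the cornified epidermis list went from 21 to 0 of 22.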

How the data were processed

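Messenger RNA from 18 pig tissue libraries was counted per gene. The authors stored tissue in RNAlater, extracted RNA with TRIzol and used a VAHTS mRNA-seq V3 kit, per the labels' protocols. The values are raw counts of reads per gene as the authors deposited them. The submitters' processing notes name fastp, HISAT2 2.1.0 and HTSeq 0.11.2, while for the genome build, annotation and strand setting the sources used here give nothing. Overlapping, antisense and near-identical genes are therefore uncertain.

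Groups follow the deposited titles. All 18 libraries in 6 groups entered an edgeR 4.0.16 quasi-likelihood fit (R 4.3.3, robust), with TMM scaling and filterByExpr (minimum count 10, minimum total 15). The contrast of WT scrotum minus WT mouth was adjusted by Benjamini-Hochberg over 12895 of 27339 genes. The fit kept edgeR's default prior count, and a prior count of 2 was used only for the log CPM behind the correlations of libraries. The SE is the size of the log2 difference over the root of its F statistic. For groups at 0, folds are bounds against 3 counts in the whole group, and for 1 to 3 counts exact 95% intervals are given. These cover counting error only, since no molecular identifiers are recorded. The code was tested on simulated data, where 1.01% of the genes changed 2-fold and 57% of those changed 4-fold were called. Of the symbols, 26838 matched RefSeq names (Sscrofa11.1), and 9918 are placeholders.

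Genes were named by rule: the 15 largest called differences in each direction without overlap and with a mean of at least 10 CPM in a label, up to 4 members of each of 47 lists by adjusted p, all tested positional genes, the 10 most abundant genes of each label, and up to 2 abundant members per list not called. The rule gave 275 genes, of which 120 are printed. The 7 genes outside it (LHX8, PYGB, MYH11, KRT1, KRT25, COL6A3 and ALB) were chosen after their values were seen. Members and lists were chosen with earlier results of these data known. Alternatives used DESeq2 1.42.0, limma 3.58.1 (voom), other scalings and filters, a replicate block and left-out libraries. Promoter motifs were not analysed here, and some genes that the rule names are not reported here.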

Additional observations from a re-analysis of the deposited data

Results flagged for a closer look

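The label difference differed between the DIK tumours and WT normal tissue, by the interaction term, for 5 positional genes and for 13.1% of all genes tested. Of these positional genes, 4 are described. Each difference is the scrotum label minus the mouth label on the log2 scale, and the interaction is the DIK difference minus the WT difference. TBX15 differed by -1.42 ± 0.97 in DIK and 2.65 ± 0.39 in WT, an interaction of -4.07 ± 1.04, adjusted p = 0.0139. The DIK difference was not called (adjusted p = 0.565). It rests on 8 counts summed over the DIK libraries labelled mouth and 2 over those labelled scrotum, so its size and direction are not reliable. Without DIK mouth replicate 3 the interaction was -3.69, adjusted p = 0.0612. TBX3 differed by 0.32 ± 0.33 in DIK and 2.00 ± 0.35 in WT, an interaction of -1.68 ± 0.48, adjusted p = 0.0249. It was not called with library size as the only scaling, nor without WT mouth replicate 3, WT scrotum replicate 1, DIK mouth replicate 3 or DIK scrotum replicate 3 (adjusted p up to 0.0697).

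DLX3 differed by -0.48 ± 0.68 in DIK and 4.14 ± 0.99 in WT, an interaction of -4.62 ± 1.22, adjusted p = 0.0183. Without WT mouth replicate 2 it was -4.04, adjusted p = 0.0556, and without WT scrotum replicate 2, the library with the epidermal genes, -2.77, adjusted p = 0.11. DLX5, which had 0 counts in the WT libraries labelled mouth, gave a fitted interaction of -5.25 ± 1.43, adjusted p = 0.0218, a size that depends on edgeR's default prior count. It was -3.05, adjusted p = 0.248, without WT scrotum replicate 2, and was also not called without WT mouth replicate 2 or DIK mouth replicate 2. By limma-voom the DLX3 and DLX5 interactions were -2.94 and -2.49 and were not called.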

How the results depend on the processing

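The skeletal muscle, respiratory chain and smooth muscle lists kept their direction in every fit that left out 1 of the 6 libraries. The number of genes called varied with the setting. Against 1772 higher and 1198 lower genes, a fit of only the 6 libraries gave 831 and 726, a fit of the 9 WT libraries 1035 and 874, an adjusted p under 0.01 left 1060 and 633, and library size as the only scaling gave 1174 and 2670. Leaving out 1 library gave 1239 to 1973 higher and 850 to 1258 lower. Without WT mouth replicate 1 and WT scrotum replicate 2, an alternative added after seeing the data, 1607 were higher and 1298 lower, and 2251 of the 2970 calls were shared.

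Replicate numbers are shared between labels, but nothing says that they pair the samples. Deviations of same-numbered libraries correlated at -0.135, -0.224 and 0.137. On the 6 compared libraries, where the fit without it gave 831 and 726, the replicate block gave 648 higher and 495 lower genes. With the block on all 18 libraries 5 positional interactions were called. The number of such interactions was 9 by limma-voom, and 3 to 6 with 1 library left out. Of the called genes named in the text, 16 lost their call in the fit of the 6 libraries, 15 in that of the 9 WT libraries, 16 by limma-voom and 20 with the block. Genes that did not pass the filter of a fit are left out of its count. With 1 library left out, differences that changed sign ranged from -0.18 to 4.11 for DLX4, -1.18 to 5.50 for OTX1 and -1.51 to 7.93 for KRT1 (each lowest without WT scrotum replicate 2). KRT1 was at -0.53 by limma-voom, and at -1.89 without both WT mouth replicate 1 and WT scrotum replicate 2. Beyond the libraries left out, the cause of these changes was not tested. Genes near the floor of 3 counts have no reliable size of difference.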

Other observations

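Genes of plasma proteins that the liver makes were present in 2 of the 3 libraries labelled mouth. A list of such genes, chosen after their values were seen, summed to 1003, 1015 and 29.9 CPM in WT mouth replicates 1, 2 and 3, against 3.78, 2.85 and 4.51 CPM under the scrotum label and 5.13 to 15.4 CPM in WT nose tissue. FGB, a fibrinogen chain, had 176, 145 and 3.15 CPM under the mouth label and 0, 0.204 and 0 CPM under the scrotum label. HP, the haemoglobin-binding protein haptoglobin, had 239, 237 and 4.72 against 0.42, 1.02 and 0.502 CPM, and HPX, the haem carrier hemopexin, had 77.9, 96.6 and 4.46 against 0, 0 and 0.502 CPM. ALB, serum albumin, did not pass the filter and had 152, 171 and 2.1 against 0.42, 0 and 0.502 CPM. The source of these counts was not tested.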
